A study of Homo sapiens with 4 samples.

Results

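The 9 matrix metalloproteinase (MMP) genes MMP1, MMP3, MMP7, MMP10, MMP12, MMP13, MMP2, MMP9 and MMP14 were followed in oral cancer cells depleted of STAU1. They were matched by symbol to the Ensembl identifiers of the deposited count table, and all 9 were found among its 67008 rows. Reads were sufficient for a test in 8 of them, among 14303 tested genes in all. These genes were chosen by their symbols, but with the fold changes of this contrast already in view, so their differences between the groups are given as a description, without p-values.

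RNA-sequencing counts were available for 4 libraries of SAS, a squamous carcinoma line from a human tongue. In 2 libraries the cells carried an shRNA against luciferase (shLuc, the control, Ctrl) and in 2 libraries an shRNA against STAU1 (shSTAU1). All 4 were given the genotype WT and a viral infection as treatment, so the controls had been infected too. The labels also name C3H 10T1/2, a mouse fibroblast line, while giving the organism as human and the cell type as an oral cancer line, and the libraries were taken as SAS cells. Total RNA was made into libraries with the TruSeq RNA Exome kit, which captures coding transcripts with probes. Nothing in the labels says whether the replicates were separate cultures, nor how many shRNA sequences or clones were used, so the spread between 2 libraries may be technical. Values are CPM, counts relative to the TMM-scaled library size, and in bulk RNA of this kind fewer expressing cells and less RNA per cell cannot be told apart.

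MMPs are secreted or membrane-bound zinc proteases that cut collagens, elastin, proteoglycans and many cell-surface proteins. They are made as inactive precursors, in which a cysteine of the propeptide holds the catalytic zinc, and are activated when other proteases remove that propeptide. In squamous carcinomas they are known for opening the basement membrane and the stroma to invading cells, and many of them are induced through AP-1, a dimer of FOS and JUN proteins. STAU1 is a double-stranded RNA-binding protein that takes part in the transport, translation and decay of mRNAs.

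The zinc-binding site is a stretch of coding sequence that the 9 genes share although their expression differed, and it is shown for that reason. The sequences below were read from the GENCODE 29 transcript of each gene on GRCh38. Capitals mark the codons of the 3 histidines that bind the zinc and of the catalytic glutamate, and the lines run 5′ to 3′ in the coding sense.
MMP1, codons 218 to 228: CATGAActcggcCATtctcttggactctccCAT
MMP13, codons 222 to 232: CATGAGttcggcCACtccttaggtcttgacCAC
MMP3, codons 218 to 228: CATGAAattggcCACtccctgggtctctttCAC
MMP10, codons 217 to 227: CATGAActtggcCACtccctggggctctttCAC
MMP12, codons 218 to 228: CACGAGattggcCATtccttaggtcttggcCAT
MMP7, codons 214 to 224: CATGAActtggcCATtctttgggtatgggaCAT
MMP2, codons 403 to 413: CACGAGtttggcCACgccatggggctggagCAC
MMP9, codons 401 to 411: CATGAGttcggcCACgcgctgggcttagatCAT
MMP14, codons 239 to 249: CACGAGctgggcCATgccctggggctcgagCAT

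Each of these stretches lies within a single exon. It is exon 8 in the gelatinases MMP2 (chr16:55491827-55491859, plus strand) and MMP9 (chr20:46012453-46012485, plus strand), whose catalytic domain carries fibronectin-type repeats inserted before the site. It is exon 5 in the other 7 genes, MMP14 (chr14:22843283-22843315, plus strand) and the 6 genes on the minus strand of chromosome 11. There the stretch stood at chr11:102795549-102795581 in MMP1, chr11:102952115-102952147 in MMP13, chr11:102840535-102840567 in MMP3, chr11:102776718-102776750 in MMP10, chr11:102868011-102868043 in MMP12 and chr11:102523343-102523375 in MMP7. The codon of the propeptide cysteine was also found in all 9 genes, at codon 92 in MMP3 (cccaggTGTggagttcctgat, cysteine codon in capitals) and at codon 91 in MMP10 (cccaggTGTggagttcctgac). MMP3 and MMP10 were the closest pair, with 85.2% identity over 1428 aligned coding bases and 31 of the 33 bases of the zinc site in common. The next pair, MMP1 and MMP3, had 65.5%, and the lowest of the 36 pairs, MMP10 and MMP14, had 55.1%.

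This likeness bears on read assignment. Of the windows of 50 bases in the MMP3 transcript, 59 of 1967 (3%) occurred without a mismatch in MMP10, and the same 59 made up 3.45% of the 1709 windows of MMP10, so a small part of the reads of this pair is uncertain. MMP2 shared 127 of 3692 windows (3.44%) with AC007336.3, a gene model that lies inside MMP2 itself. The other 6 genes shared no such window with another gene.

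The knockdown itself was checked before the MMP genes. STAU1 (ENSG00000124214, chromosome 20) had 249 and 251 CPM in the Ctrl libraries and 41.6 and 41.5 CPM in the shSTAU1 libraries. This is 16.6% of the Ctrl level, a log2 fold change of -2.59 (SE 0.13, adjusted p = 0.00103 by edgeR's quasi-likelihood test with Benjamini-Hochberg adjustment). Library totals ran from 32206655 to 36301574 counts. Across the 14303 tested genes 372 passed an adjusted p of 0.05 (2.60%), of which 161 were higher (1.13%) and 211 lower (1.48%) in shSTAU1. With library size in place of TMM, 404 passed, 132 of them higher and 272 lower, whereas DESeq2 called 773 higher and 676 lower. The median log2 fold change of all tested genes was 0.01. The CPM of the groups did not overlap in 56.6% of tested genes, with shSTAU1 higher in 28.5% and lower in 28.0%, so that with 2 libraries per group a gap between the groups is common. An exact permutation test of 2 against 2 values cannot give a two-sided p below 0.333.

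The 8 markers of squamous epithelium were all tested and summed to between 5578 and 5748 CPM in Ctrl and between 7297 and 9671 CPM in shSTAU1. Of these, 2 were called higher (1.13% of all tested genes), SFN (log2 fold change 1.43) and KRT5 (0.65), while DSG3 had -0.76 (adjusted p = 0.0731 by edgeR's test). Markers of other cells that are known for making MMPs were examined too. The 4 neutrophil markers summed to at most 0.0297 CPM in Ctrl and 0.201 CPM in shSTAU1, with ELANE and FCGR3B at 0 in all libraries. The 6 macrophage markers summed to 3.15 to 3.18 CPM in Ctrl and 2.09 to 3.22 CPM in shSTAU1, with 1 read of PTPRC and 1 of CD163 over the 4 libraries. Most of this macrophage sum was CSF1R, whose counts are given below with MMP12, as are those of CD14. ITGAM had 1 and 27 counts in Ctrl and 3 and 10 in shSTAU1. The 7 fibroblast markers summed to 11.5 to 12.04 CPM in Ctrl and 8.86 to 17.7 CPM in shSTAU1, with THY1 at 0 and with 1 read of LUM and 2 of DCN in total. Most of that sum was FAP, with 305 and 280 counts in Ctrl and 525 and 256 in shSTAU1, and COL6A3 had 64, 67, 55 and 47 counts in the same order.

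The collagenases MMP1 and MMP13 cut fibrillar collagens within the triple helix. MMP1 (ENSG00000196611, chr11:102789920-102798160, minus strand) had 204 and 348 CPM in the Ctrl libraries and 127 and 546 CPM in the shSTAU1 libraries, from counts of 6845, 11401, 4414 and 19287. The shSTAU1 libraries held both the lowest and the highest value, so the groups overlapped. The means were 276 ± 102 CPM (SD, n = 2) and 336 ± 296 CPM (SD, n = 2), and the fitted log2 fold change was 0.29 (SE 0.57). It was -1.13 without shSTAU1 replicate 2 and 0.99 without shSTAU1 replicate 1, and it was -0.05 and 0.73 without the first and the second Ctrl library, so a single library set its sign. Replicate 2 exceeded replicate 1 by 1.71-fold in Ctrl and by 4.30-fold in shSTAU1. Among the 4791 genes above 5 on the log2 CPM scale, 1 gene had a wider ratio than MMP1 between the shSTAU1 libraries and 21 had a wider ratio between the Ctrl libraries. The median ratio of the higher to the lower replicate over all tested genes was 1.16 in Ctrl and 1.21 in shSTAU1. MMP13 (ENSG00000137745, chr11:102942995-102955734, minus strand) was far lower, at 5.14 and 3.08 CPM in Ctrl and 4.02 and 4.98 CPM in shSTAU1. Both shSTAU1 values fell between the Ctrl values, with a log2 fold change of 0.13 (SE 0.33) that ranged from -0.19 to 0.54 when each library was left out in turn.

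The stromelysins MMP3 and MMP10 cut proteoglycans, laminin and fibronectin and can activate other MMP precursors. MMP3 (ENSG00000149968, chr11:102835801-102843803, minus strand) had 29.6 and 43.9 CPM in Ctrl and 212 and 212 CPM in shSTAU1, from 997, 1437, 7367 and 7504 counts. Both shSTAU1 libraries lay far above both Ctrl libraries. The means of 36.8 ± 10.1 CPM and 212 ± 0.513 CPM (SD, n = 2 each) differed 5.77-fold, a log2 fold change of 2.53 (SE 0.20). This value stayed between 2.27 and 2.84 when any library was left out, and 42 of the tested genes had a larger positive one. MMP10 (ENSG00000166670, chr11:102770503-102780628, minus strand), its closest relative by sequence, had 37 and 23 counts in Ctrl and 19 and 52 in shSTAU1, or 1.10, 0.702, 0.546 and 1.47 CPM. The shSTAU1 libraries again held both extremes, and the log2 fold change of 0.16 (SE 0.60) ran from -0.73 to 0.71 with a library left out. Its highest value was in shSTAU1 replicate 2, at 2.70 times replicate 1.

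MMP12, the metalloelastase best known from macrophages, and MMP7, the short matrilysin that lacks the C-terminal hemopexin domain, were low. MMP12 (ENSG00000262406, chr11:102862736-102875034, minus strand) had 43 and 53 counts in Ctrl and 221 and 122 in shSTAU1, or 1.28, 1.62, 6.35 and 3.45 CPM. Both shSTAU1 libraries were above both Ctrl libraries, with replicate 1 the highest. The means of 1.45 ± 0.240 and 4.90 ± 2.05 CPM (SD, n = 2 each) gave a fitted 3.38-fold difference, a log2 fold change of 1.76 (SE 0.39) that ran from 1.26 without shSTAU1 replicate 1 to 2.12. Among macrophage markers, CD14 had 5 and 5 counts in Ctrl and 40 and 15 in shSTAU1, a gene named after its values were seen, while CSF1R had 96, 70, 68 and 48 counts in the order of Ctrl and then shSTAU1 libraries. The part of such cells in the MMP12 values was not tested. MMP7 (ENSG00000137673, chr11:102520508-102530753, minus strand) had 2 and 0 reads in Ctrl and 3 and 0 in shSTAU1, and was removed by the filter on low counts. A count of 0 allows up to 3 counts, or at most 0.0916 CPM here, so a difference in MMP7 was not detectable at this depth.

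The gelatinases MMP2 and MMP9 cut denatured collagen and type IV collagen of basement membranes. MMP2 (ENSG00000087245, chr16:55389700-55506691, plus strand) had 54.4 and 54.9 CPM in Ctrl and 78.2 and 72.0 CPM in shSTAU1. The groups lay apart, with little spread within either. The means were 54.6 ± 0.371 and 75.1 ± 4.36 CPM (SD, n = 2 each), 1.37-fold apart, and the log2 fold change of 0.46 (SE 0.13) stayed between 0.41 and 0.51 with any library left out. MMP9 (ENSG00000100985, chr20:46008908-46016561, plus strand) had 25 and 46 counts in Ctrl and 23 and 31 in shSTAU1, or 0.743, 1.40, 0.661 and 0.877 CPM. These values overlapped, and the log2 fold change of -0.48 (SE 0.53) ranged from -0.87 to 0.05 with a library left out.

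MMP14, the membrane-type enzyme that activates the MMP2 precursor at the cell surface together with TIMP2, is on chromosome 14 (ENSG00000157227, chr14:22836557-22849027, plus strand). It had 151 and 109 CPM in Ctrl and 164 and 95.2 CPM in shSTAU1. Replicate 1 was the higher one in both groups, the reverse of MMP1, and the group means of 130.3 ± 29.6 and 129.6 ± 48.6 CPM (SD, n = 2 each) hardly differed. The log2 fold change was -0.01 (SE 0.26), and it ran from -0.44 without shSTAU1 replicate 1 to 0.32 without shSTAU1 replicate 2.

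**Figure D1:**
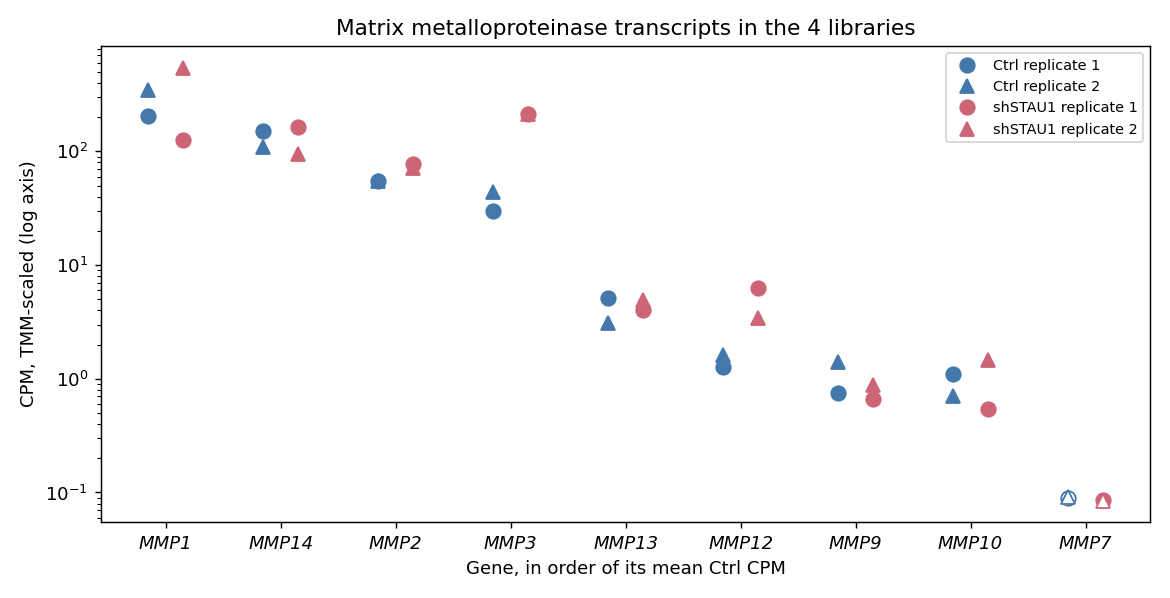
CPM (log axis) of the 9 genes in each library, with Ctrl in blue, shSTAU1 in red, circles for replicate 1 and triangles for replicate 2; open symbols hold fewer than 3 counts and are drawn at the level of 3 counts. The blue and red symbols are apart for MMP3, MMP12 and MMP2, and the red symbols enclose the blue ones for MMP1, MMP10 and MMP14.

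Of the 8 tested genes 3 had groups that did not overlap, all higher in shSTAU1 (MMP3, MMP12 and MMP2), beside 28.5% of all tested genes on that side. MMP3 was the single gene of the 8 past an adjusted p of 0.05 in edgeR's test, beside the 2.60% of all tested genes given above. Since the contrast was in view when the genes were proposed, nothing was read from these shares. The fitted value was above 0 in 6 and below 0 in 2, and the median log2 fold change was 0.22, against 0.01 over all tested genes. The replicates differed in the same direction in both groups in 4 of the 8 genes, and in 63.9% of all tested genes.

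Per transcript length, MMP3 and MMP2 changed places in Ctrl, as did MMP10 and MMP9, while the order in shSTAU1 stayed the same. How well the capture probes covered each gene is not known, so levels of different genes are compared with that limit. In CPM per kilobase of transcript (RPKM), MMP1 led in Ctrl with 140 ± 51.9, before MMP14 with 34.9 ± 7.92, MMP3 with 18.2 ± 5.00 and MMP2 with 14.6 ± 0.099 (SD, n = 2 each). MMP3 and MMP2 differed by less than the SD of MMP3. The other 5 genes were at or below 1.51 RPKM. In shSTAU1, MMP1 had 171 ± 150 RPKM and MMP3 had 105 ± 0.255 RPKM, which did not differ beyond the spread of MMP1, followed by MMP14 with 34.7 ± 13.0 and MMP2 with 20.1 ± 1.17. MMP12, with 2.61 ± 1.09 RPKM in shSTAU1, was above MMP13, with 1.66 ± 0.250, a gap smaller than the SD of MMP12, and the 2 genes had nearly equal shares of the summed RPKM in shSTAU1 replicate 2 (0.426% and 0.424%). In Ctrl, MMP12 had 0.773 ± 0.128 RPKM and MMP13 had 1.51 ± 0.536.

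The summed RPKM of the 9 genes was 177 and 246 in the Ctrl libraries and 239.7 and 432 in the shSTAU1 libraries, so the sums overlapped. MMP3 made up 8.32% and 8.87% of the sum in Ctrl and 43.8% and 24.4% in shSTAU1. MMP1 made up 58.5% and 72.0% in Ctrl and 26.9% and 64.1% in shSTAU1. The ratio of MMP1 to MMP3 in RPKM was 7.03 and 8.12 in Ctrl and 0.613 and 2.63 in shSTAU1, lower in both shSTAU1 libraries although MMP1 itself was high in one of them. The ratio of MMP2 to MMP14 was 0.359 and 0.500 in Ctrl and 0.475 and 0.754 in shSTAU1, and these overlapped.

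**Figure D2:**
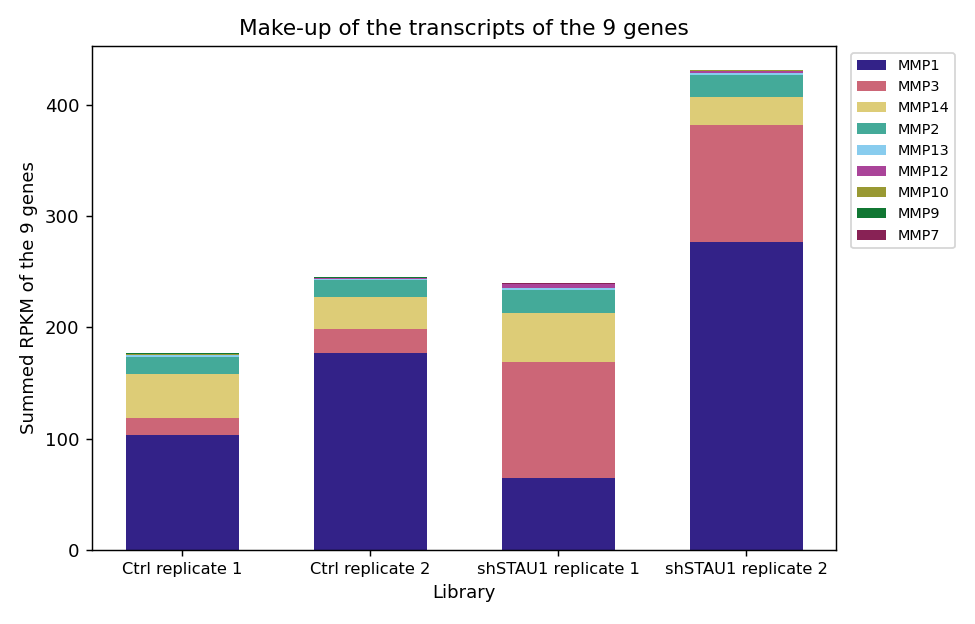
Summed RPKM of the 9 genes in each library, with 1 colour per gene stacked from MMP1 at the base. MMP3 takes 8.32% and 8.87% of the bar in Ctrl and 43.8% and 24.4% in shSTAU1, and the tallest bar, shSTAU1 replicate 2, owes most of its height to MMP1.

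The chromosome 11 cluster holds 9 MMP genes, all on the minus strand, within 435.2 kb. MMP20, MMP27 and MMP8 had no read in any library, and the other 6 are among the genes described here. The 2 members with the largest fitted values, MMP3 and MMP12, are neighbours, 18.9 kb apart. MMP1 lies 37.6 kb before MMP3, MMP10 another 9.3 kb before MMP1, and MMP13 lies 68.0 kb after MMP12. The groups overlapped in all 3 of these flanking genes. The median log2 fold change was 0.29 for the 5 tested cluster genes and -0.01 for the 3 genes elsewhere, a difference of 0.29. This difference was -0.37 without shSTAU1 replicate 2 and 1.27 without shSTAU1 replicate 1, and the median of the cluster was the value of MMP1 itself. A higher level of the cluster as a whole relative to the other genes was therefore not seen beyond the spread between libraries.

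Genes around the cluster served as a local comparison. Of 8 neighbours 6 were tested, with a median of 0.05, and 1 was called lower (1.48% of all tested genes) and none higher. The one that fell was BIRC3, an inhibitor of apoptosis that responds to NF-kappaB, with 204 and 170 counts in Ctrl and 30 and 47 in shSTAU1 (log2 fold change -2.36, SE 0.35, adjusted p = 0.0328 by edgeR's quasi-likelihood test). The most abundant neighbours were DYNC2H1, a ciliary motor subunit, with a log2 fold change of 0.44 (SE 0.14, adjusted p = 0.119 by the same edgeR test), and YAP1, a transcriptional coactivator, with -0.32 (SE 0.15, adjusted p = 0.228). WTAPP1, a pseudogene transcribed on the opposite strand across MMP10, MMP1 and the 3′ end of MMP3, had 3 reads in total and was named after its values were seen. The strand setting of the counting is not stated, and without it reads of these genes and of WTAPP1 cannot be told apart where they overlap. The kit captures coding transcripts, so the few reads of WTAPP1 do not show how far this pseudogene was transcribed.

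**Figure D3:**
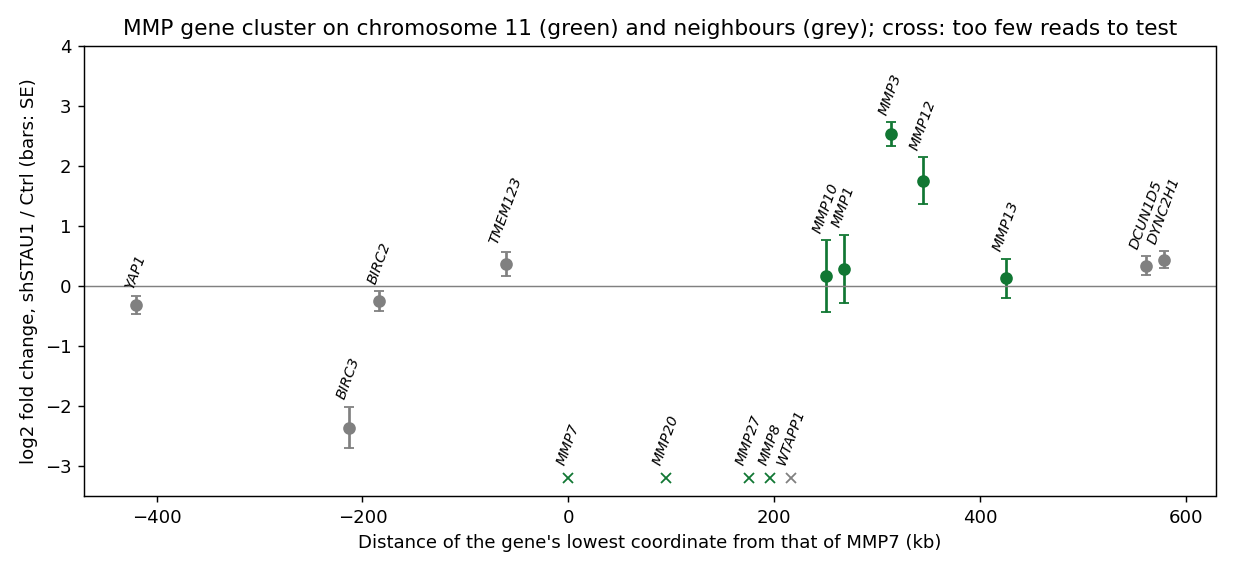
Fitted log2 fold change (shSTAU1 over Ctrl, bars: SE) of the MMP genes of chromosome 11 (green) and their neighbours (grey). The horizontal axis is the distance in kb of each gene's start, read along its own strand, from the start of MMP7. The axis label names the lowest coordinate, but the points stand at the starts. Crosses mark genes with too few reads to test. MMP3 and MMP12 stand at 2.53 and 1.76 between MMP1 (0.29) and MMP13 (0.13), while the grey genes other than BIRC3 lie between -0.32 and 0.44.

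Promoter sequence from RefSeq (GRCh38.p14, 250 bases before to 50 after the start) was at hand for MMP7, MMP10 and MMP14. The AP-1 motif was searched as TGANTCA, with any base at its centre. This pattern, which reads the same on both strands, occurred in 7.71% of 35116 promoters of this length, and TATAAA on either strand in 11.5%. MMP7 and MMP10 both matched the pattern at base -67, but with different centres, as TGAGTCA in MMP7 and TGAATCA in MMP10. Both held TATAAA at base -30 or -31, and MMP14 held neither. Distances are counted from the RefSeq start, which for MMP7 is not the GENCODE start given above, so the shared distance depends on the start used. No promoter of another cluster gene was at hand, so the motif was not compared with expression. The windows around the AP-1 motif are shown because these 2 genes of the cluster have it at the same distance from the RefSeq start. The motif is in capitals, 5′ to 3′ on the minus strand.
MMP7, chr11:102530796-102530826: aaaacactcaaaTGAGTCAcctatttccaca
MMP10, chr11:102780677-102780707: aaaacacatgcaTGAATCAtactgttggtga

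The windows around TATAAA, which did not overlap the AP-1 motif, were gctgagaagctaTATAAAtttctgcagtca in MMP7 (chr11:102530760-102530789) and gcattgtctctgTATAAAagaaaggccact in MMP10 (chr11:102780642-102780671). A match of letters is a description of the window and not a measured binding site.

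Of the other 14 genes of the family 8 had no read in any library and 4 were tested. By edgeR's test none was called in either direction (2.60% of all tested genes). None had an unadjusted p under 0.05 in that test (3509 of all 14303 tested genes), and their median log2 fold change was -1.44. MMP15, a membrane-type enzyme and the most abundant of them, had 17.6 and 20.8 CPM in Ctrl and 16.6 and 6.96 CPM in shSTAU1 (log2 fold change -0.71, SE 0.37, adjusted p = 0.273 by edgeR's quasi-likelihood test). MMP17, anchored in the membrane by a lipid, had 37 and 23 counts in Ctrl and 23 and 9 in shSTAU1. MMP16 and MMP25, named after their values were seen, had 14 and 12 against 6 and 0 counts, and 12 and 10 against 5 and 1 counts. In these 4 genes no shSTAU1 library was above a Ctrl library in CPM, which held for 28.0% of all tested genes, and shSTAU1 replicate 2 had the lowest value in each.

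**Figure D4:**
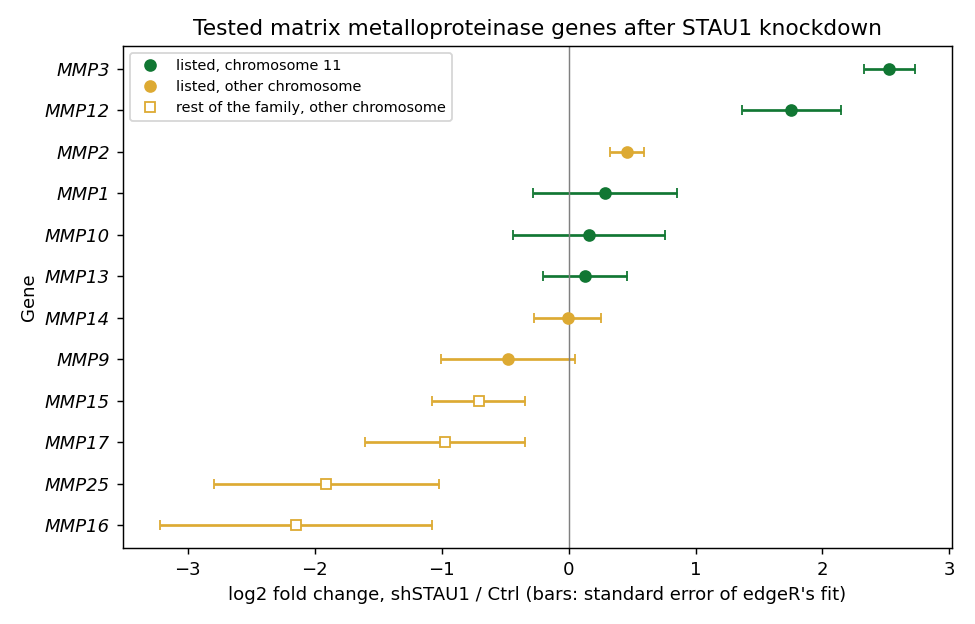
Fitted log2 fold change (shSTAU1 over Ctrl, bars: SE of edgeR's fit) of the 12 tested MMP genes, in green on chromosome 11 and in yellow elsewhere, filled for the genes described in full and open for the rest of the family. The values run from 2.53 for MMP3 to -2.14 for MMP16, and the bars of MMP1, MMP10, MMP13, MMP14 and MMP9 cross 0.

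The inhibitors of MMPs are the 4 TIMP proteins, the membrane-anchored RECK, the plasma trap A2M and TFPI2. TFPI2 had no read and the other 6 were tested, with a median of 0.23. By edgeR's test none was called in either direction (2.60% of all tested genes). In that test 0 had an unadjusted p under 0.05 (3509 of all 14303 tested genes). TIMP3, which binds to the matrix, had 35.6 and 27.1 CPM in Ctrl and 43.5 and 39.0 CPM in shSTAU1 (log2 fold change 0.40, SE 0.18, adjusted p = 0.220 by edgeR's quasi-likelihood test). TIMP1, a soluble inhibitor of most MMPs, had 20.7 and 14.7 CPM in Ctrl and 16.6 and 14.3 CPM in shSTAU1 (-0.20, SE 0.22, adjusted p = 0.617 by the same edgeR test). The ratio of MMP3 to TIMP1 in RPKM was 0.777 and 1.62 in Ctrl and 6.92 and 8.04 in shSTAU1, with TIMP1 itself overlapping between the groups.

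Proteases that activate MMP precursors were examined in a list of 10, of which 8 were tested, with a median of -0.41. One fell (1.48% of all tested genes) and none rose (1.13%). PLAT, the tissue plasminogen activator, had 22.7 and 16.6 CPM in Ctrl and 7.58 and 4.24 CPM in shSTAU1 (log2 fold change -1.73, SE 0.31, adjusted p = 0.0368 by edgeR's quasi-likelihood test). PLAU, the urokinase, had 71.0 and 60.1 CPM in Ctrl and 48.1 and 36.4 CPM in shSTAU1 (-0.64, SE 0.18, adjusted p = 0.0888 by the same test), and ST14, the membrane protease matriptase, had -0.24 (SE 0.18, adjusted p = 0.445).

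Cytokines and growth factors known to induce MMPs, with their receptors, made a list of 12, of which 10 were tested, with a median of -0.54. The 2 that were called both fell, beside 1.48% of all tested genes. IL6, an inflammatory cytokine, had 12.7 and 13.9 CPM in Ctrl and 5.03 and 4.67 CPM in shSTAU1 (log2 fold change -1.45, SE 0.21, adjusted p = 0.0328 by edgeR's quasi-likelihood test). HBEGF, a ligand of the EGF receptor, had 36.3 and 25.4 CPM in Ctrl and 11.8 and 11.7 CPM in shSTAU1 (-1.39, SE 0.21, adjusted p = 0.0357 by the same edgeR test). The most abundant genes of the list overlapped between the groups, with a log2 fold change of -0.06 (SE 0.17, adjusted p = 0.851) for EGFR, the receptor, and 0.30 (SE 0.29, adjusted p = 0.553) for its ligand AREG. TNF and OSM had no read.

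The 19 transcription factors known to act on MMP promoters were all tested, with a median of 0.02. Among them were the FOS and JUN proteins of AP-1, the ETS family, RUNX and NF-kappaB subunits. None was called by edgeR's test, beside 2.60% of all tested genes. In the same test 6 had an unadjusted p under 0.05, as did 3509 of all 14303 tested genes. STAT3, the most abundant, had 267 and 303 CPM in Ctrl and 234 and 279 CPM in shSTAU1 (log2 fold change -0.15, SE 0.14, adjusted p = 0.543 by edgeR's quasi-likelihood test). RUNX1 had 114 and 138 CPM in Ctrl and 89.8 and 87.6 CPM in shSTAU1 (-0.50, SE 0.14, adjusted p = 0.0897 by the same edgeR test).

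MMP substrates of the matrix and the cell surface gave the most calls of the 7 lists, 5 of 9 tested genes among 12, with 1 higher (1.13% of all tested genes), 4 lower (1.48%) and a median of -0.31. VCAN, the proteoglycan versican, rose from 37.6 and 46.3 CPM in Ctrl to 164 and 189 CPM in shSTAU1 (log2 fold change 2.07, SE 0.16, adjusted p = 0.0058 by edgeR's quasi-likelihood test). The basement membrane collagen genes COL4A1 and COL4A2 fell, COL4A1 from 598 and 641 CPM to 270 and 291 CPM (-1.14, SE 0.12, adjusted p = 0.014 by edgeR) and COL4A2 from 480 and 486 CPM to 205 and 209.8 CPM (-1.22, SE 0.12, adjusted p = 0.0108 by edgeR). COL1A1, a fibrillar collagen chain, fell from 15.7 and 20.2 CPM to 7.84 and 6.25 CPM (-1.35, SE 0.23, adjusted p = 0.036 by edgeR). The most abundant substrate, fibronectin (FN1), had 16188 and 20139 CPM in Ctrl and 15343 and 14017 CPM in shSTAU1 (-0.31, SE 0.14, adjusted p = 0.225 by edgeR), and E-cadherin (CDH1) had -0.29 (SE 0.25, adjusted p = 0.510).

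**Figure D5:**
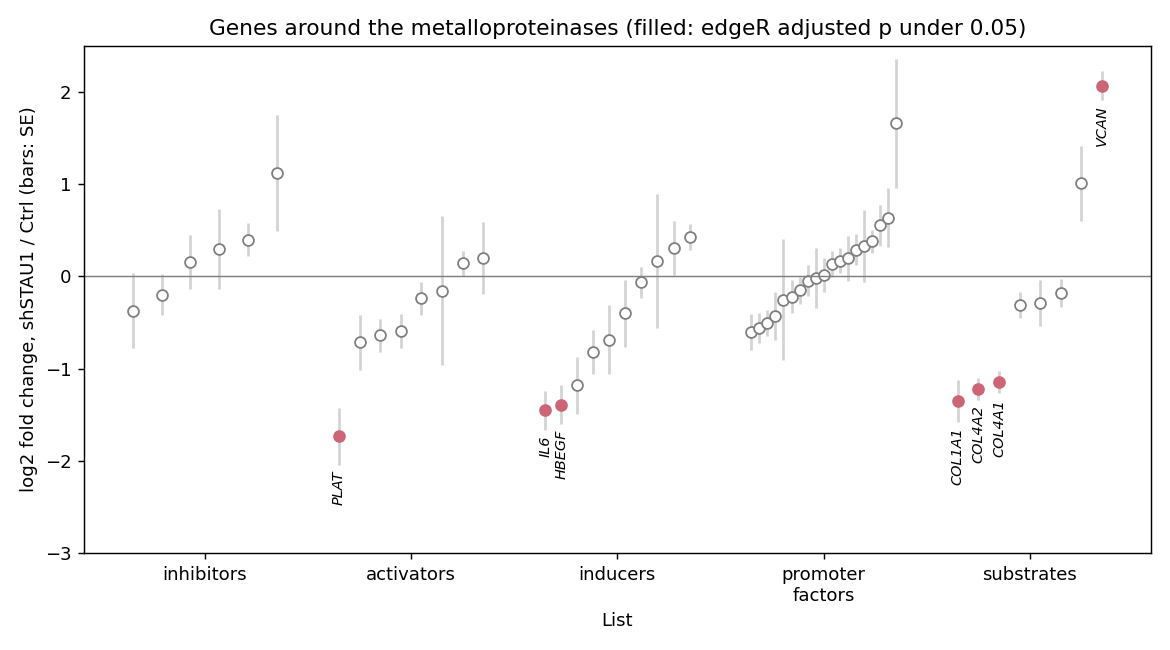
Fitted log2 fold change (shSTAU1 over Ctrl, bars: SE) of the tested genes of 5 lists, except 1 substrate that is left out, each sorted from low to high, with filled points for an edgeR adjusted p under 0.05. The filled points are PLAT, IL6, HBEGF, COL1A1, COL4A2 and COL4A1 below 0 and VCAN at 2.07, and the inhibitors and promoter factors have none.

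Over the 7 lists, 62 of 82 genes were tested and 9 were called, 1 higher and 8 lower, beside 1.13% and 1.48% of all tested genes. Without shSTAU1 replicate 2 the calls were 9 higher and 13 lower. These calls rested on the spread between replicates as estimated from 4 libraries. Without Ctrl replicate 1 no gene of the whole table was called by edgeR (1502 had an unadjusted p under 0.05), and the 9 genes kept their direction with an adjusted p of 0.49. Without Ctrl replicate 2, IL6, COL1A1 and COL4A1 were not called. Without a filter on low counts, 2 of the 9, VCAN and COL4A2, were called.

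Genes whose pattern over the 4 libraries was nearest to that of the most abundant members were looked up by the distance between log2 CPM centred on each gene's mean, among 11833 genes outside the lists. MMP3 was nearest to SOBP, at 0.803 and 1.62 CPM in Ctrl and 7.32 and 6.71 CPM in shSTAU1 (distance 0.30), and next to NKX1-2 (distance 0.65). MMP1 was nearest to CCNA1, a cyclin, at 6.16 and 10.995 CPM in Ctrl and 4.11 and 15.5 CPM in shSTAU1 (distance 0.15). The next was ENSG00000226268 (distance 0.44). Both were picked for their likeness to MMP1, so they do not show how common its spread was. MMP14 was nearest to PDK1 (distance 0.034) and PHLDB3 (0.050), and MMP2 to TMEM165 (0.016) and ANGEL1 (0.022). With 4 points per gene such likeness is a description of these libraries.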

How the data were processed

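RNA-sequencing of 2 Ctrl and 2 shSTAU1 libraries was analysed, grouped by the titles and shRNA labels. The authors deposited whole-number read counts per gene without normalization, between 32206655 and 36301574 per library. The submitters' processing notes name Partek and hg38, while the aligner, counting program, strand setting and annotation release are not given in the sources used here. Of 67008 rows 58516 were in GENCODE 29 (GRCh38), with 99.9% of the counts, and gene positions, transcript lengths and coding sequences were taken from it, so they may not be of the authors' release. The 45 rows for second copies of pseudoautosomal genes held 0 counts. Promoters came from RefSeq (GRCh38.p14).

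Counts were filtered with edgeR's filterByExpr (minimum count 10), scaled by TMM and compared between groups with edgeR 4.0.16 in R 4.3.3 by its quasi-likelihood F-test, with p-values adjusted after Benjamini-Hochberg over all 14303 tested genes and a threshold of 0.05. The biological coefficient of variation was 19.1%. Replicates were kept apart because their counts differed beyond sampling noise, with a chi-square of 25.2 per degree of freedom in Ctrl and 60.0 in shSTAU1. Limits from 3 counts cover counting error only. CPM were divided by the length of the gene's longest coding transcript (RPKM) for comparisons between genes.

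The members and all lists were chosen with earlier results of these data known. The lists were 14 other MMP genes, 7 inhibitors, 10 activators, 12 inducers, 19 promoter factors, 12 substrates, 8 neighbours on chromosome 11 and 4 sets of cell markers. Named from the 7 lists were genes past the threshold and the 2 with the highest mean CPM, and for the 4 members with the highest counts the 2 genes nearest in pattern. A single gene of the substrate list is not reported here. Any others are said to have been named after their values were seen, or stand as markers or as genes with no read.

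The alternatives were DESeq2 1.42.0, no filter, scaling by library size alone, limma-voom (limma 3.58.1), a threshold of 0.10, the replicate number as a block, an offset for each library's trend with length and GC (mgcv 1.9.3) with and without that block, the ratio of mean CPM, and leaving out each library. The models were tested on simulated counts.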

Additional observations from a re-analysis of the deposited data

How the results depend on the processing

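The 372 calls over all genes became 1449 with DESeq2, 1585 at an adjusted p of 0.10 (837 higher and 748 lower), 191 after the length and GC correction, 11 without a filter (24804 genes tested), and 0 (without Ctrl replicate 1) to 2780 (without shSTAU1 replicate 1) with a library left out, by way of 64 without Ctrl replicate 2 and 2203 without shSTAU1 replicate 2. With the replicate number as a block there were 4087 calls (2208 higher and 1879 lower), and 3750 with the block and the length and GC correction. Same-numbered libraries correlated at 0.27 in their deviations. The column names give the replicate number first and then a number that goes with the shRNA. Nothing in the labels says that a number marks a batch, and with 2 numbers the samples were not taken as pairs. With the block MMP1 had a log2 fold change of -0.01 (SE 0.11) and MMP14 had -0.04 (SE 0.12). Neither SE shows how far the replicate numbers disagreed in direction. MMP1 had 204 CPM in Ctrl and 127 in shSTAU1 for replicate 1, but 348 and 546 for replicate 2. MMP14 had 151 CPM in Ctrl and 164 in shSTAU1 for replicate 1, but 109 and 95.2 for replicate 2. The SE of MMP9 and MMP10 stayed wide with the block, at 0.55 and 0.56. The 9 calls of the 7 lists became 14 with DESeq2 and at 0.10, 2 without a filter, 35 with the block (12 higher and 23 lower), 29 with the block and the correction, and 0 (without Ctrl replicate 1) to 26 (without shSTAU1 replicate 1), with 22 without shSTAU1 replicate 2. The log2 fold change of STAU1 stayed between -2.60 and -2.58 with a library left out, with an adjusted p of 0.49 without Ctrl replicate 1, where no gene was called.

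The median log2 fold change of the 8 tested members, 0.22, was 0.10 with limma-voom, 0.11 with the block, 0.061 with the block and the correction, and 0.14 to 0.56 with a library left out (0.48 without Ctrl replicate 1, 0.56 without shSTAU1 replicate 1). The cluster-minus-other difference of 0.29 was -0.37 to 1.27 with a library left out. Members called were 1, beside 372 of all 14303 tested genes, and 2 under DESeq2, beside 1449 of them. At 0.10 there were 3 members called, beside 1585 of all tested genes, and with the block 3, beside 4087. In these settings calls among the members rose along with calls over all genes up to 1585, and were still 3 at 4087. Over the settings that kept all libraries, MMP3 ran from 2.46 to 2.56, MMP12 from 1.61 to 1.76, MMP2 from 0.41 to 0.49, and MMP1 from -0.09 to 0.29. The cause of these shifts was not tested. A fit that leaves out a library assumes that the lone sample varies like the other group. Of 96 alternative values of single members 90 moved by less than 1 SD and 6 by more, all 6 with a library left out. The SD here is each gene's own SD between the replicates of a group in log2 CPM, 1.12 for MMP1 and 0.74 for MMP10. A gene with a wide spread can therefore shift far and stay within it, as MMP1 did with 0.99 without shSTAU1 replicate 1. Of 99 alternative values of the called list genes 79 stayed past the threshold and 20 did not, with no change of direction. The depth leaves MMP7 without a comparison and MMP9 and MMP10 on 19 to 52 counts.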
